A study of Mus musculus with 114 samples.

Results

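Collagen VI is a matrix protein assembled from chains encoded by separate genes, and the 6 genes Col6a1, Col6a2, Col6a3, Col6a4, Col6a5 and Col6a6 were followed here in isolated mouse adipocytes among 29132 genes. The chains were taken by symbol, and the set was chosen by earlier results of these same data, in which the chains parted from each other at 34 weeks. For that reason the levels and chain ratios at 34 weeks are given as descriptions without a test, and tests are given at 8 and 20 weeks.

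A collagen VI molecule is a triple helix of the α1 chain, the α2 chain and another chain, which is usually α3 and can be α4, α5 or α6. The molecules join inside the cell into dimers and tetramers, which are secreted and linked end to end into beaded microfilaments around the cell. In fat, collagen VI forms part of the sheath around each adipocyte, and a fragment cleaved from the end of the α3 chain, endotrophin, is a secreted signal.

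The adipocytes came from the perigonadal fat of male C57BL/6J mice. From an age of 6 weeks they were fed chow (CD) or a high fat diet (HFD), and adipocytes were taken after 8, 20 or 34 weeks of feeding. There were 6 CD and 6 HFD mice at 8 weeks, 6 and 6 at 20 weeks, and 8 and 6 at 34 weeks, 38 mice in all, each with 3 technical replicates merged into a single value per gene. The cells were the fraction that floats after collagenase digestion of the fat pad, so the preparation can carry other cells. The labels name no transgene or deletion.

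Expression was measured by RNA-seq as CPM, the reads of a gene scaled so that all listed genes of a mouse sum to 1000000. Each mouse had 9275711 to 15480388 reads on genes, and 1 read was worth 0.0646 to 0.108 CPM. At 8 weeks the CD mice had 10562845 to 12611013 reads and the HFD mice 13201234 to 15480388, so all HFD mice were read deeper at that week. All 8 adipocyte markers (Adipoq, Plin1, Lep, Cidec, Lipe, Pnpla2, Fabp4 and Slc2a4) were detected in all mice, and their summed level was 15791 to 45180 CPM. Markers of other cells were detected too. Summed marker levels do not measure the share of RNA that came from each cell type. The summed level of 7 macrophage markers was 197 to 1269 CPM in 8 week CD and 846 to 2582 CPM in 8 week HFD mice, 304 to 2521 and 3504 to 6702 CPM at 20 weeks, and 886 to 9756 and 4081 to 11703 CPM at 34 weeks. Adgre1, also on the macrophage list, was not analysed here. The 8 fat progenitor and fibroblast markers (Pi16 was at 0 in at least 1 mouse) summed to 10.8 to 46.5 CPM in CD and 19.4 to 107 CPM in HFD mice at 8 weeks, to 18.6 to 53.9 and 87.0 to 193 CPM at 20 weeks, and to 21.8 to 109 and 67.9 to 150 CPM at 34 weeks. Pdgfra and Cd34 of this list were above 0 in every mouse. In such bulk RNA, fewer cells of a type and less RNA per cell cannot be told apart, and the part of these cells in the results below was not tested.

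The genes lie in 3 clusters on the mouse genome (GRCm38). Col6a1 (10:76708792-76726168) and Col6a2 (10:76595762-76623630) lie near each other on the minus strand of chromosome 10, 85161 bases apart with 1 gene between them. Col6a3 stands alone on chromosome 1 (90765923-90843971, minus strand). Col6a6, Col6a5 and Col6a4 follow each other on the minus strand of chromosome 9, at 105687809-105828160, 105856078-105960643 and 105989454-106096783. Some exons of Col6a4 and Col6a6 overlap genes on the other strand, and the strand setting of the read counting is not given in the sources used here.

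The promoter windows of the 4 chains with a tested level are shown because these chains are the ones whose courses are compared here. Each window runs from 250 bases before to 50 bases after the RefSeq start on GRCm38.p6, 5′ to 3′ along the gene, which is the minus strand. Capitals mark matches of 4 motifs on either strand. The GC box was searched as GGGCGG. The TATA box was searched as TATAAA, and the CCAAT box by those 5 letters. The AP-1 site was searched as TGANTCA, where N is any base.
Col6a1, chr10:76725995-76726294: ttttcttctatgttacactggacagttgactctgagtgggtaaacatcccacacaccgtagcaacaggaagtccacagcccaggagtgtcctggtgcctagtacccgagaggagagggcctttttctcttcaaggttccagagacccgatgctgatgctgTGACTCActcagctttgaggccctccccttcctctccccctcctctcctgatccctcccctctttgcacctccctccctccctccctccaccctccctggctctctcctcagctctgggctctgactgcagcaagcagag
Col6a2, chr10:76623355-76623654: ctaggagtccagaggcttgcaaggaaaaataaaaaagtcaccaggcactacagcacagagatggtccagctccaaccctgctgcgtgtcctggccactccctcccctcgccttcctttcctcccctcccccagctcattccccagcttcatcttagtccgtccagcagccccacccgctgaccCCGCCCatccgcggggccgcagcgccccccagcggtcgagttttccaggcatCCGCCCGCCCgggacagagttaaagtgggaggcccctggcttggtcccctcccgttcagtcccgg
Col6a3, chr1:90843922-90844221: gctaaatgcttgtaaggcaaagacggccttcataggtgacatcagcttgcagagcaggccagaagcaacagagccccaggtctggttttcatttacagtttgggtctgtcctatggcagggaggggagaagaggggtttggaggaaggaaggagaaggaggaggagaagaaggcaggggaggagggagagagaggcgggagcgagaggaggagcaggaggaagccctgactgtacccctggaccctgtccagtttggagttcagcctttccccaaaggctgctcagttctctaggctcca
Col6a5, chr9:105960594-105960893: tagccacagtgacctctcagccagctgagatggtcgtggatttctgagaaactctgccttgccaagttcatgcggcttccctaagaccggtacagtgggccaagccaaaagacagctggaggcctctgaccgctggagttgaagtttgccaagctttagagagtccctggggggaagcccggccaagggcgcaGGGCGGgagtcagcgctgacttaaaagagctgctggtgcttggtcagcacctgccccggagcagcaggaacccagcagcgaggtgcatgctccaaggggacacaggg

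The Col6a1 window held 1 AP-1 match, which 7.81% of all 32851 windows hold. The Col6a2 window held 3 GC boxes, of which the last 2 overlap, and the Col6a5 window held 1, while 35.7% of all windows hold at least 1. The Col6a3 window held none of the 4 motifs. A CCAAT box (37.4% of windows) and a TATA box (13.6%) were in none of these 4 windows. Col6a2 has a second RefSeq start upstream, whose window held 1 GC box. These are matches of letters, and no binding was measured.

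By CPM per kilobase of exons, Col6a1 and Col6a2 had the highest mean of the 6 genes in every group, Col6a3 came after them, Col6a5 and Col6a6 were low, and Col6a4 was near 0. As mean levels, 20 week HFD adipocytes held 118 ± 32.9 CPM per kilobase of Col6a1, 65.2 ± 17.4 of Col6a2, 19.1 ± 5.93 of Col6a3, 7.68 ± 0.919 of Col6a5 and 0.905 ± 0.0692 of Col6a6 (SD, n = 6). The length of Col6a2 used here includes retained introns, and with the longest protein-coding transcript its level was 117 CPM per kilobase, next to 127 for Col6a1. The order of Col6a1, Col6a2 and Col6a3 against Col6a5 and Col6a6 held with that length too. Because Col6a3 is longer than Col6a1 and Col6a2, its CPM understates how far it lay below these chains per kilobase.

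Col6a1 encodes the α1 chain, which every collagen VI molecule needs. In 8 week CD mice it ran from 86.1 to 210.3 CPM with a median of 155.4, and in 8 week HFD mice from 392.3 to 1382 CPM with a median of 898.9. At 20 weeks the CD mice ran from 35.4 to 295.7 CPM (median 120.7) and the HFD mice from 285.6 to 676.3 CPM (median 539.9). All 8 week HFD mice lay above all 8 week CD mice, and at 20 weeks 5 of 6 did. The mean was 6.13 times the CD mean at 8 weeks and 3.84 times at 20 weeks, and on the log2(CPM + 1) scale Col6a1 rose by 2.51 ± 0.35 (SE) at 8 weeks (limma, adjusted p = 3.23e-06) and by 2.14 ± 0.35 at 20 weeks (adjusted p = 5.89e-06).

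Col6a2, the α2 chain, followed Col6a1 closely. Its levels ran from 82.3 to 181.1 CPM (median 109.7) in 8 week CD and from 294.3 to 1409 CPM (median 836.8) in 8 week HFD mice. At 20 weeks they ran from 32.3 to 242.7 CPM (median 107.5) in CD and from 298.3 to 708.5 CPM (median 547.5) in HFD mice. Neither week showed an overlap of the diets. The log2 difference was 2.72 ± 0.38 at 8 weeks (adjusted p = 2.84e-06) and 2.37 ± 0.38 at 20 weeks (adjusted p = 3.87e-06).

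Col6a3, the α3 chain and the source of endotrophin, was also higher with HFD at both weeks. Levels in 8 week mice ran from 30.5 to 56.2 CPM (median 49.6) in CD and from 63.8 to 261.6 CPM (median 185.2) in HFD, and in 20 week mice from 13.5 to 93.2 CPM (median 39.3) and from 128.5 to 341.5 CPM (median 225.8). The diets did not overlap at either week. The log2 difference was 1.80 ± 0.35 at 8 weeks (adjusted p = 1.59e-04) and 2.49 ± 0.35 at 20 weeks (adjusted p = 6.77e-07).

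Col6a5 encodes a chain that can stand in for α3. Its levels ran from 3.87 to 9.91 CPM (median 5.02) in 8 week CD and from 4.77 to 26.8 CPM (median 15.9) in 8 week HFD mice, which overlapped. At 20 weeks the CD mice ran from 5.27 to 22.5 CPM (median 7.85) and the HFD mice from 60.4 to 83.0 CPM (median 71.9), with no overlap and little spread among the HFD mice. The log2 difference was 1.26 ± 0.47 at 8 weeks (adjusted p = 0.0275) and 2.71 ± 0.47 at 20 weeks (adjusted p = 1.11e-05). The call at 8 weeks was lost when any of 5 mice was left out, with adjusted p up to 0.0681.

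**Figure D1:**
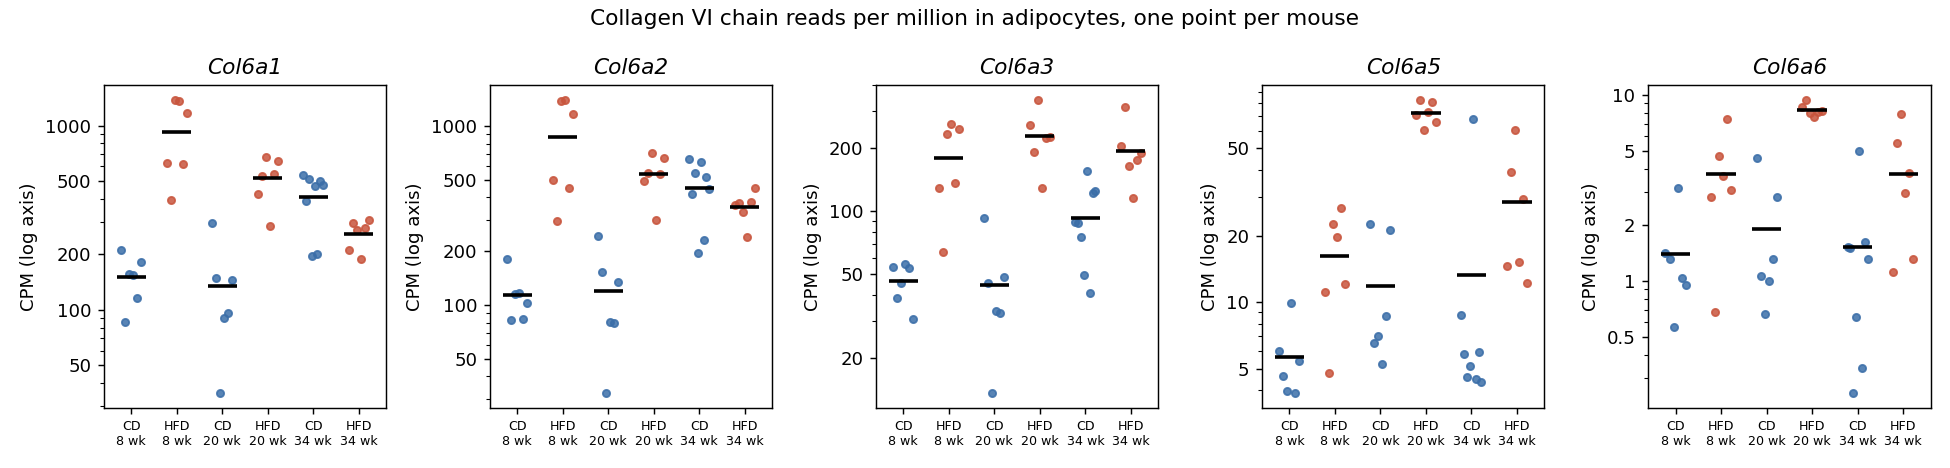
CPM of 5 collagen VI chains on a log axis, with 1 point per mouse, CD in blue, HFD in red and the group mean as a black line. HFD mice lay above CD mice at 8 and 20 weeks for Col6a1, Col6a2 and Col6a3, except for 1 HFD mouse at 20 weeks in Col6a1, while Col6a5 and Col6a6 peaked in 20 week HFD mice, and 1 CD mouse at 34 weeks stood at 67.5 CPM of Col6a5.

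All 4 tested chains were thus higher in HFD at 8 weeks, where 29.8% of the 10343 genes tested were called higher, and at 20 weeks, where 38.3% were. The diets did not overlap, with all HFD mice above, for 3 of 4 tested chains at 8 weeks (15.7% of genes tested) and for 3 of 4 at 20 weeks (26.1%). With so large a share of all genes called higher, the count of chains alone says little about them. The median log2 difference over all tested genes was 0.108 at 8 weeks and 0.136 at 20 weeks. The CPM carry no TMM factor, and with TMM factors the median of all genes became 0.00583 and −0.0710, the genes called higher and lower went from 3083 and 1565 to 2339 and 2212 at 8 weeks and from 3957 and 1937 to 2718 and 3356 at 20 weeks, and the chains at 20 weeks came to 1.93 for Col6a1, 2.15 for Col6a2, 2.28 for Col6a3 and 2.51 for Col6a5, all still called.

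Col6a6 and Col6a4 did not pass the filter on low values and were not part of the main fit. Col6a6, another chain that can replace α3, ran from 0.568 to 3.15 CPM in 8 week CD and 0.682 to 7.45 CPM in 8 week HFD mice, and at 20 weeks from 0.662 to 4.55 and from 7.59 to 9.42 CPM. The 20 week HFD mice lay above all 20 week CD mice, as for Col6a5. In a fit without the filter its log2 difference was 0.89 ± 0.36 at 8 weeks (limma, adjusted p = 0.0695) and 1.82 ± 0.36 at 20 weeks (adjusted p = 1.41e-04). Col6a4 reached at most 5 reads in a mouse and 0.428 CPM, and had no read in 17 of 38 mice. At 8 weeks the CD mice had no Col6a4 read and 5 of 6 HFD mice had 1 or 2, 7 reads in all. In the fit without the filter Col6a4 was not called at 8 or 20 weeks (adjusted p = 0.293 and 0.313), and at so few reads a difference could not be resolved.

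Within the same diet, few chains were called between 8 and 20 weeks. In CD mice none of the 4 tested chains was called, among 3.58% of genes called (370 of 10343, with 1784 at an unadjusted p under 0.05 and 590 called by DESeq2), and their log2 differences were −0.37 ± 0.35 for Col6a1, −0.12 ± 0.38 for Col6a2, −0.24 ± 0.35 for Col6a3 and 0.81 ± 0.47 for Col6a5. In HFD mice only Col6a5 was called, by 2.26 ± 0.47 (limma, adjusted p = 5.30e-04), where 36.5% of genes were called. Col6a1 had −0.74 ± 0.35 (adjusted p = 0.0966), which TMM factors, edgeR and DESeq2 called, with adjusted p of 0.0430, 0.0291 and 0.0232. Col6a2 had −0.48 ± 0.38 and Col6a3 0.45 ± 0.35 (adjusted p = 0.322 and 0.319). The interaction of diet with these weeks was called in no chain, where 4.49% of genes were called (464 of 10343, with 2826 at an unadjusted p under 0.05 and 851 called by DESeq2). It came to −0.37 ± 0.50 for Col6a1, −0.36 ± 0.53 for Col6a2, 0.69 ± 0.50 for Col6a3 and 1.45 ± 0.66 for Col6a5, with adjusted p from 0.152 to 0.678.

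Ratios between chains within a mouse compare the chains with each other. The ranges and medians are plain CPM ratios, which do not depend on the scaling of the library. The log2 differences and tests use ratios of (CPM + 1), so they depend on it slightly at low CPM. The ratio of Col6a3 to Col6a1 ran from 0.167 to 0.462 in 8 week CD mice (median 0.327) and from 0.163 to 0.218 in 8 week HFD mice (median 0.200). Its log2 value fell by 0.715 ± 0.234 (SE) with HFD at 8 weeks (exact two-sided permutation test, p = 0.0152, adjusted p = 0.0303 over 6 tests), a ratio 0.609 times that of CD. At 20 weeks the order was turned, with 0.305 to 0.383 in CD (median 0.337) and 0.353 to 0.607 in HFD mice (median 0.430), and the log2 difference was 0.35 ± 0.13 (exact permutation p = 0.0260, adjusted p = 0.0390). At 20 weeks the exact p rose to 0.0563 without either of 2 CD mice, replicates 1 and 2.

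The ratio of Col6a3 to Col6a2 showed the same fall at 8 weeks. It ran from 0.296 to 0.641 in CD and from 0.170 to 0.302 in HFD mice, where 5 of 6 lay below all CD mice, and its log2 value fell by 0.924 ± 0.214 (exact permutation p = 0.00433, adjusted p = 0.0130). At 20 weeks it was 0.296 to 0.419 in CD and 0.342 to 0.528 in HFD mice, with a log2 difference of 0.12 ± 0.13 (exact permutation p = 0.361, adjusted p = 0.361). Col6a2 to Col6a1 had the smallest log2 diet difference of these ratios at 8 weeks, but not at 20 weeks. It was 0.21 ± 0.14 higher on the log2 scale at 8 weeks (exact permutation p = 0.173, adjusted p = 0.208) and 0.22 ± 0.06 higher at 20 weeks (exact permutation p = 0.00433, adjusted p = 0.0130), where 5 of 6 HFD mice lay above all CD mice. The smallest p that 6 against 6 mice allow is 0.00216.

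**Figure D2:**
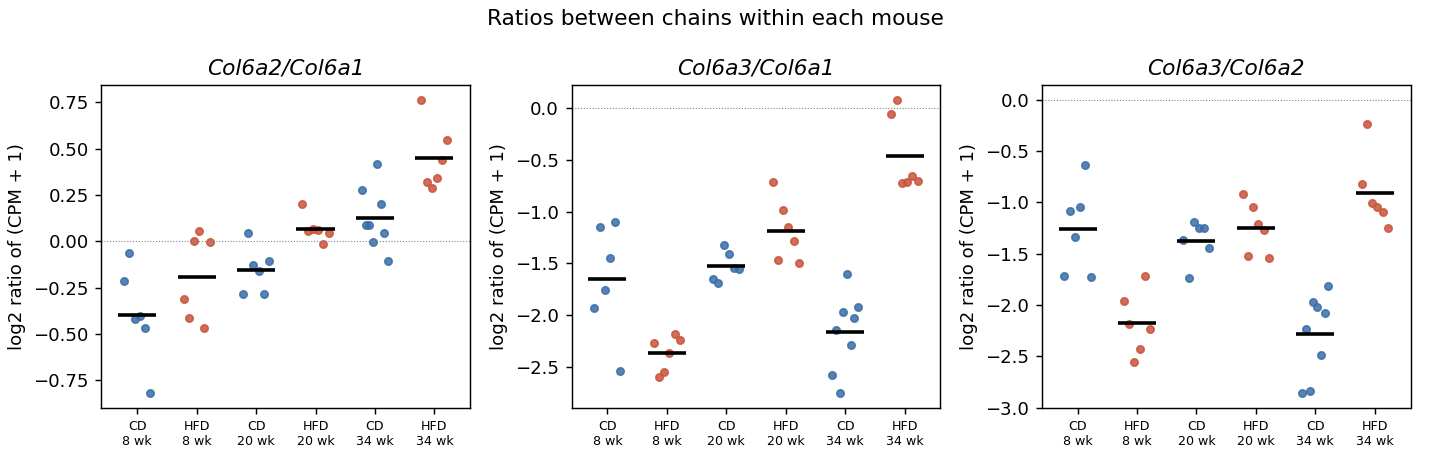
Log2 ratios of (CPM + 1) between chains in each mouse, CD in blue and HFD in red, with the group mean as a black line and a dotted line at equal CPM. Col6a3 against Col6a1 was lower with HFD at 8 weeks and higher at 20 and 34 weeks, and at 34 weeks the diets did not overlap.

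At 34 weeks, the week on which the chains were chosen, they moved apart. The following values are descriptions. Col6a1 ran from 197.0 to 539.0 CPM (median 474.7) in CD mice and from 189.3 to 307.5 CPM (median 275.0) in HFD mice, so its mean in HFD was 0.629 times that in CD. Col6a2 ran from 196.9 to 652.4 CPM (median 481.3) in CD and from 240.2 to 450.1 CPM (median 365.7) in HFD mice, with a mean 0.782 times that of CD. For both chains the groups overlapped, and 6 of the 8 CD mice held 390.5 to 539.0 CPM of Col6a1 while the other 2 held 197.0 and 201.4 CPM.

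Col6a3 kept the direction of the earlier weeks. It ran from 40.5 to 154.9 CPM (median 88.5) in CD and from 115.5 to 313.7 CPM (median 182.8) in HFD mice at 34 weeks, and 5 of 6 HFD mice lay above all CD mice. None of the 4 tested chains had all HFD mice above all CD mice at this week, where 1.47% of genes tested did. The log2 differences were −0.59 ± 0.33 for Col6a1, −0.27 ± 0.35 for Col6a2, 1.11 ± 0.33 for Col6a3 and 1.54 ± 0.44 for Col6a5.

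**Figure D3:**
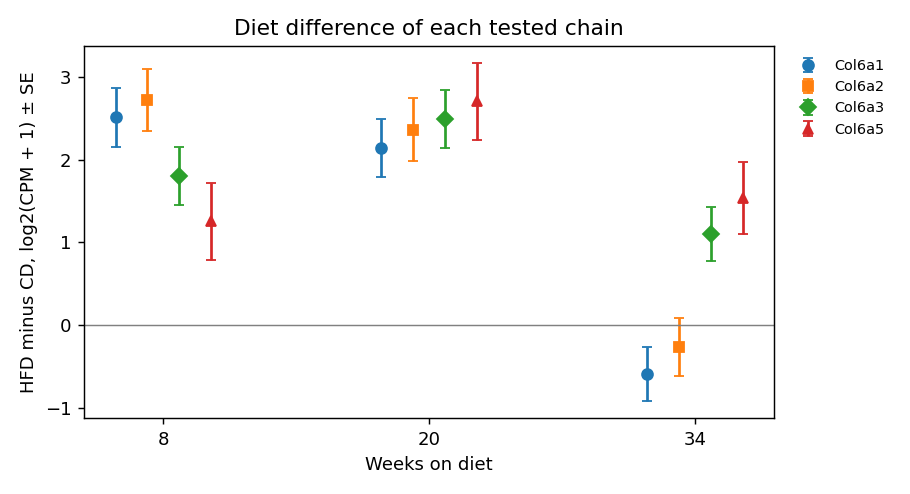
Difference of HFD from CD in log2(CPM + 1) for the 4 tested chains at 8, 20 and 34 weeks, with bars of 1 SE from limma. All 4 lay above 0 at 8 and 20 weeks, and at 34 weeks Col6a1 and Col6a2 lay at −0.59 and −0.27 while Col6a3 and Col6a5 lay at 1.11 and 1.54.

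Levels of some chains differed between weeks in both diets. All mice began the diet at the same age, so age and length of feeding cannot be told apart. The log2 level of CD mice at 34 weeks minus that at 8 weeks was 1.40 ± 0.33 for Col6a1, 1.93 ± 0.35 for Col6a2, 0.90 ± 0.33 for Col6a3 and 0.44 ± 0.44 for Col6a5. In HFD mice the same difference was −1.70 ± 0.35 for Col6a1, −1.06 ± 0.38 for Col6a2, 0.21 ± 0.35 for Col6a3 and 0.72 ± 0.47 for Col6a5. For 34 minus 20 weeks the values were 1.77 ± 0.33, 2.05 ± 0.35, 1.14 ± 0.33 and −0.36 ± 0.44 in CD mice and −0.97 ± 0.35, −0.58 ± 0.38, −0.24 ± 0.35 and −1.54 ± 0.47 in HFD mice, in the same order of chains. At 34 weeks Col6a1 and Col6a2 were thus higher than at the earlier weeks in CD mice and lower in HFD mice, and Col6a3 in HFD mice differed little from either earlier week. These comparisons share mice, so they are set side by side only.

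Within a mouse the separation at 34 weeks was complete. The ratio of Col6a3 to Col6a1 ran from 0.147 to 0.328 in CD mice and from 0.605 to 1.06 in HFD mice, a ratio 3.25 times as high on average. Col6a3 to Col6a2 ran from 0.137 to 0.283 in CD and from 0.419 to 0.847 in HFD mice, 2.59 times as high. Col6a2 to Col6a1 ran from 0.930 to 1.34 in CD and from 1.22 to 1.70 in HFD mice, with overlap. The log2 difference of Col6a3 to Col6a1 was 1.70 ± 0.20 and stayed between 1.59 and 1.78 when any mouse at 34 weeks was left out.

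**Figure D4:**
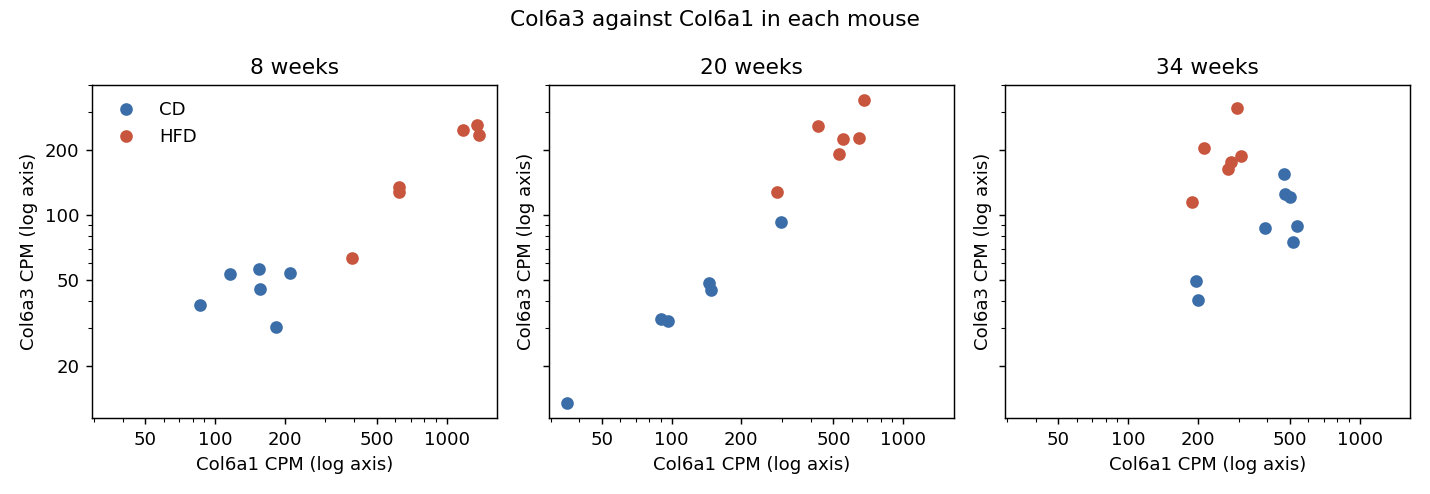
Col6a3 CPM against Col6a1 CPM in each mouse on log axes, 1 panel per week, CD in blue and HFD in red. At 34 weeks the HFD mice lay at 115.5 to 313.7 CPM of Col6a3 and at most 307.5 CPM of Col6a1, apart from the CD mice.

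Col6a5 and Col6a6 were high in 1 CD mouse at 34 weeks. Mouse 5 of that group held 67.5 CPM of Col6a5 and 4.96 CPM of Col6a6, whereas the other 7 held 4.36 to 8.73 and 0.249 to 1.62 CPM. The same mouse held 25.8 CPM of the progenitor gene Pdgfra, against 0.822 to 4.31 in the others, and 59.1 CPM of the protease gene Mmp2, against 1.97 to 7.22. Its summed progenitor and macrophage markers, 109 and 9756 CPM, were above the other 7, which had 21.8 to 92.1 and 886 to 6548 CPM, and its adipocyte markers, 26994 CPM, were below their 32430 to 45180 CPM. The part of these in its Col6a5 level was not tested. The HFD mice at 34 weeks ran from 12.2 to 60.7 CPM of Col6a5 (median 22.3) and from 1.12 to 7.87 CPM of Col6a6, and without mouse 5 the log2 difference of Col6a5 was 1.96 in place of 1.54, that of Col6a3 1.23 in place of 1.11. In CD mice, without mouse 5, the log2 difference of Col6a5 was 0.018 in place of 0.44 for 34 minus 8 weeks and −0.79 in place of −0.36 for 34 minus 20 weeks.

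Ordered by mean level, the groups stood differently for each chain. Col6a1 rose from 20 week CD (135 CPM) over 8 week CD (151), 34 week HFD (259), 34 week CD (412) and 20 week HFD (519) to 8 week HFD (925). Col6a3 rose from 20 week CD (44.4 CPM) over 8 week CD (46.4), 34 week CD (93.2), 8 week HFD (179) and 34 week HFD (194) to 20 week HFD (229). In both orders neighbouring groups overlapped in range at every step. The largest step for Col6a5 was from 34 week HFD (28.5 CPM) to 20 week HFD (72.3), and for Col6a6 from 3.75 to 8.29 CPM between the same groups, although single mice still overlapped.

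Across mice of the same group, chains varied together. Over the 24 mice at 8 and 20 weeks, taken as deviations from group means, Col6a1 and Col6a2 had a Pearson r of 0.970 and a Spearman rho of 0.978 (permutation p of 1e-05 for both, the smallest that 100000 resamples can give, adjusted p = 1.5e-05 over 3 pairs). Col6a2 and Col6a3 had r = 0.916 and rho = 0.897 with the same p, and Col6a1 and Col6a3 had r = 0.885 (permutation p = 4e-05, adjusted p = 4e-05) and rho = 0.854 (permutation p = 7e-05, adjusted p = 7e-05). Without the 2 mice farthest from the median the r values were 0.957, 0.854 and 0.795. Over the 14 mice at 34 weeks they were 0.946, 0.770 and 0.777, and 0.838, 0.529 and 0.509 without 2 mice. Over all 38 mice Col6a5 and Col6a6, which are neighbours, had r = 0.890, whereas Col6a5 had r of 0.399, 0.410 and 0.497 with Col6a1, Col6a2 and Col6a3. Values from 1 library share its composition, and these correlations describe such shared variation too.

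The genes whose deviations from group means were most like the mean of Col6a1, Col6a2 and Col6a3 over the 38 mice were Rab22a (r = 0.881), Calu (0.881), Akirin1 (0.873), Col5a1 (0.865), Pea15a (0.859), Degs1 (0.854), Col1a1 (0.843) and Septin2 (0.843). With the group means left in, they were Col5a1 (0.941), Serpinf1 (0.937), Tmeff2 (0.935), Map1a (0.930), Dclk1 (0.930), Rab22a (0.925), Slc2a10 (0.922) and Golm1 (0.917). Col5a1, a chain of the fibrillar collagen V, and Rab22a, a small GTPase of endosomes, were in both sets.

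Receptors of collagen VI were mostly higher with HFD. Of 8 genes 5 were tested, of which 3 (8 weeks), 4 (20 weeks) and 4 (34 weeks) were called higher, with none lower. Over all genes tested 29.8%, 38.3% and 27.5% were called higher at these weeks and 15.1%, 18.7% and 15.7% lower. Antxr1, the anthrax toxin receptor that binds the end of the α3 chain, rose by 1.29 ± 0.38, 2.29 ± 0.38 and 1.17 ± 0.35 at 8, 20 and 34 weeks (limma, adjusted p = 0.00637, 5.96e-06 and 0.00792). Antxr1 was low in CD mice, with means of 1.28, 2.02 and 3.12 CPM at these weeks. The HFD means were 4.69, 13.6 and 7.64 CPM, and Antxr1 passed the filter on low values through them. Its relative Antxr2 was flat at 8 weeks (−0.06 ± 0.13, adjusted p = 0.721) and rose by 0.64 ± 0.13 at 20 weeks (adjusted p = 1.04e-04) and by 0.70 ± 0.12 at 34 weeks. Itgb1, the integrin β1 subunit, rose by 0.75 ± 0.13, 1.03 ± 0.13 and 0.61 ± 0.12. Itga1, a collagen-binding integrin subunit, rose by 0.65 ± 0.23 at 8 and 0.69 ± 0.23 at 20 weeks, the latter not called with TMM factors (0.48, adjusted p = 0.0547), and had 0.26 ± 0.22 at 34 weeks (adjusted p = 0.335). Cspg4, the proteoglycan NG2, had −0.23 ± 0.25 and 0.41 ± 0.25 at 8 and 20 weeks and rose by 0.58 ± 0.23 at 34 weeks (adjusted p = 0.0434, and 0.0870 with TMM factors). Itga2, Itga10 and Itga11 were too low to be tested, with group means of at most 2.63 CPM.

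Matrix partners of collagen VI were mostly higher with HFD at 8 and 20 weeks. Of 9 genes 8 were tested, of which 6, 7 and 2 were called higher and none lower across the 3 weeks (29.8%, 38.3% and 27.5% of all genes higher), so the share at 34 weeks was near that of all genes. The partners had median log2 differences of 1.86 at 20 weeks and 0.61 at 34 weeks. With TMM factors Matn2 was no longer called at 20 weeks, which leaves 6. Tnxb, the matrix glycoprotein tenascin X, rose by 1.95 ± 0.46 and 2.95 ± 0.46 at 8 and 20 weeks and had 1.00 ± 0.43 at 34 weeks (adjusted p = 0.0582). Fn1, fibronectin, rose by 1.65 ± 0.55 and 1.99 ± 0.55 and had 0.85 ± 0.52 at 34 weeks (adjusted p = 0.181). Hspg2, the basement membrane proteoglycan perlecan, rose by 1.61 ± 0.34 and 1.73 ± 0.34 and had 0.24 ± 0.32 at 34 weeks (adjusted p = 0.553).

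Small leucine-rich proteoglycans, which bind collagen VI, followed other courses. Lum rose by 1.62 ± 0.51, 3.21 ± 0.51 and 2.19 ± 0.48 (adjusted p = 0.0112, 4.07e-06 and 6.76e-04), and Dcn had −0.24 ± 0.23 at 8 weeks and rose by 1.26 ± 0.23 and 1.15 ± 0.21 at 20 and 34 weeks. Bgn was called at 20 weeks, where it rose by 2.83 ± 0.46, and had 0.34 ± 0.46 at 8 and 0.36 ± 0.43 at 34 weeks. Fmod rose by 1.39 ± 0.40 at 8 weeks and had 0.70 ± 0.40 and −0.10 ± 0.38 later. Matn2, a matrilin that links matrix filaments, rose by 1.24 ± 0.27 and 0.68 ± 0.27 and had −0.38 ± 0.25 at 34 weeks, and Matn4 was not tested.

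Of 5 proteases that act on collagen chains or matrix, 1, 4 and 2 were called higher and 1, 1 and 0 lower at the 3 weeks. Over all genes tested 29.8%, 38.3% and 27.5% were called higher and 15.1%, 18.7% and 15.7% lower. With 5 genes, the counts at 8 and 34 weeks say little about proteases as a group. Mmp14 and Bmp1 are proteases linked to processing of the α3 chain. Mmp14 rose by 1.28 ± 0.51 at 8 weeks and by 2.70 ± 0.51 at 20 weeks (adjusted p = 0.0374 and 3.43e-05) and had 1.03 ± 0.47 at 34 weeks (adjusted p = 0.0750), while Bmp1 had 0.53 ± 0.24 (adjusted p = 0.0728), rose by 0.88 ± 0.24 at 20 weeks (adjusted p = 0.00266) and had −0.15 ± 0.23 at 34 weeks. Mmp2 had 1.28 ± 0.53 at 8 weeks (adjusted p = 0.0501) and rose by 3.82 ± 0.53 and 1.99 ± 0.50 later. Mmp11 fell by 0.765 ± 0.286 at 8 weeks and rose by 0.97 ± 0.29 and 0.70 ± 0.27 later. Mmp9 fell by 1.81 ± 0.32 at 20 weeks and had −0.54 ± 0.32 and −0.28 ± 0.30 at 8 and 34 weeks.

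Genes for making collagen rose broadly at 20 weeks. Of 20 genes 14 were tested, 4 were not analysed here, and calls were all upward, in 10 genes at week 8, 13 at week 20 and 6 at week 34, against 29.8%, 38.3% and 27.5% of all genes. At 20 weeks the 3 largest rises among called genes were Pcolce, an enhancer of procollagen processing (3.11 ± 0.39), Fkbp10, a collagen chaperone (1.66 ± 0.36), and Colgalt1, a collagen galactosyltransferase (1.46 ± 0.20). Fkbp10 was low in CD mice, with group means of 1.26 to 3.83 CPM, and passed the filter through its HFD levels (3.82 to 7.91 CPM). The 3 smallest were Plod3, a lysyl hydroxylase (0.57 ± 0.09), Ppib, a prolyl isomerase (0.47 ± 0.10), and Crtap, part of the prolyl 3-hydroxylase complex (0.28 ± 0.10). With TMM factors Crtap was not called (0.07) and Mia3, an export factor for collagen, was called lower at 20 weeks (−0.22, adjusted p = 0.0143), which gives 12 higher and 1 lower. Serpinh1, a collagen chaperone, had −0.50 ± 0.23 at 34 weeks and was called lower there with TMM factors (−0.59, adjusted p = 0.0372).

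The tested fibrillar collagens rose at 20 weeks. Of 11 genes 6 were tested, with 4, 6 and 1 called higher at 8, 20 and 34 weeks and 1 called lower at 34 weeks, where 27.5% and 15.7% of all genes were. At 20 weeks Col1a1 had the highest log2 difference (3.66 ± 0.55) and Col5a3 the lowest (1.11 ± 0.30), and at 34 weeks Col5a3 was the gene that fell, by 1.10 ± 0.28 (adjusted p = 0.00249), while Col1a1 had 0.14 ± 0.51. Of 8 basement membrane collagens 5 were tested, of which 3 rose at 8 weeks, 3 at 20 weeks and 1 at 34 weeks. For both kinds of collagen the 1 gene higher at 34 weeks is no more than the share of all genes (29.8% at 8, 38.3% at 20 and 27.5% at 34 weeks). Their highest gene at 20 weeks was Col4a5 (1.70 ± 0.30) and their lowest Col4a1 (0.48 ± 0.24, adjusted p = 0.0815). The medians at 34 weeks were 0.126 for the fibrillar and −0.00458 for the basement membrane collagens, against 0.0737 for all genes tested.

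Markers of other cells moved with diet at the same weeks. Called higher at 8, 20 and 34 weeks were 6, 6 and 7 of 7 analysed macrophage markers, 5, 5 and 4 of 5 endothelial markers, 5, 4 and 2 of 5 mural cell markers, 5, 6 and 3 of 6 tested progenitor and fibroblast markers and 2, 0 and 0 of 3 tested mesothelial markers, where 29.8%, 38.3% and 27.5% of all genes were. Mfap5 and Fap of the progenitor list had CD group means of 0.772 to 4.01 and 1.03 to 4.46 CPM. Their HFD means were 6.90 to 24.6 and 5.89 to 6.57 CPM. Dpp4 of the progenitor list and Myh11 of the mural list had CD group means of 0.768 to 5.18 and 1.87 to 3.64 CPM. Their HFD means were 3.31 to 6.34 and 4.20 to 6.15 CPM. Mfap5, Fap, Dpp4 and Myh11 passed the filter on low values through the HFD mice, which favours a higher call. Pdgfra, with means of 2.70 to 5.11 CPM in CD and 7.18 to 27.2 CPM in HFD, was helped past it by the HFD mice. The counts of higher calls in these lists lean upward for that reason. Of 8 adipocyte markers 1, 6 and 7 were called lower, where 15.1%, 18.7% and 15.7% of all genes were, and Lep, the hormone leptin, was higher at 8 and 20 weeks by 2.18 ± 0.52 and 2.90 ± 0.52. Within groups, over 38 mice, the summed mural cell markers had a Pearson r of 0.642 with Col6a1, 0.621 with Col6a3 and −0.00777 with Col6a5. In the same order of chains the progenitor markers had 0.584, 0.614 and 0.659, the macrophage markers 0.579, 0.574 and 0.542, and the endothelial markers 0.283, 0.385 and 0.358. The mesothelial markers had 0.153, 0.135 and 0.133 and the adipocyte markers −0.277, −0.337 and −0.543. With TMM factors 1 marker fewer was called higher among progenitor markers at 8 and at 20 weeks, endothelial and mural markers at 20 weeks and mesothelial markers at 8 weeks, and 1 adipocyte marker more was called lower at 8 weeks. The part of these cells in the chain levels was not tested.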

How the data were processed

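For the deposited CPM values the authors aligned reads of stranded mRNA libraries to mm10 (STAR), counted reads over all exons of each GENCODE vM2 gene (featureCounts), merged 3 technical replicates per mouse and discarded genes without an Entrez identifier. Although TMM is stated, each column sums to 1000000, so no TMM factor is visible. All values are whole multiples of 1 read (tolerance 0.1 reads), and these recovered reads were used for edgeR 4.0.16 and DESeq2 1.42.0. Depth was 9275711 to 15480388 reads on genes per mouse, and precision from reads covers counting error only.

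The members and gene lists were chosen with earlier results of these data known. Genes whose mean log2(CPM + 1) across mice exceeded 2 (10343 genes) were fitted with limma 3.58.1 in R 4.3.3 over all 6 groups (32 residual degrees of freedom), two-sided, with Benjamini-Hochberg adjustment over all genes and a threshold of 0.05. This mean takes in the HFD mice, so a gene low in CD mice could pass through its HFD levels, which favours a higher call. The limma, edgeR and DESeq2 fits were tried on simulated counts for HFD against CD at 20 weeks. Chain ratios were compared by exact permutation over mice. Levels per kilobase use exon lengths of GENCODE M21, which differs from the annotation of the counts. Promoter windows come from RefSeq (GRCm38.p6), which held 1 or more for each of the 6 chains. Genes named are all chains, all receptors, matrix partners and proteases, the 3 largest and 3 smallest called log2 differences at 20 weeks among collagen biosynthesis genes, the highest and lowest fibrillar and basement membrane collagen, and the 8 genes most like the chains. Pdgfra and Mmp2 in a single mouse, and Serpinh1 and Mia3 under another scaling, were named after their values were seen. A sequencing batch or date is not given in the sources used here.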

Additional observations from a re-analysis of the deposited data

Results flagged for a closer look

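Among 48 combinations of a chain or ratio with a group tested for a mouse far from the others, 1 was flagged. Chance alone gives about 1 in 20, so a count of 1 in 48 is no more than chance gives. That count does not measure how far the flagged mouse lay from the others. The flagged value was Col6a5 in mouse 5 of the 34 week CD group, at 67.5 CPM against 8.73 CPM in the next mouse, a gap of 0.766 of the range. The same mouse held 4.96 CPM of Col6a6, against at most 1.62 CPM in the other 7.

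The diet difference in Col6a1 had opposite signs at different weeks. On the log2 scale it was 2.51 at 8 weeks and 2.14 at 20 weeks, where all 6 HFD mice lay above the CD mean, and −0.59 at 34 weeks, where all 6 lay below it. This difference between weeks was not tested, because the set of chains was chosen for its pattern at 34 weeks.

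The ratio of Col6a3 to Col6a1 turned as well. Its log2 diet difference was −0.72 at 8 weeks, 0.35 at 20 weeks and 1.70 at 34 weeks, and at each week all HFD mice lay on the same side of the CD mean. The ratio of Col6a3 to Col6a2 went from −0.92 at 8 weeks to 1.38 at 34 weeks in the same way. These differences between weeks were not tested.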

How the results depend on the processing

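Of 1117 alternative values for 63 results, 1074 kept their direction and their side of the threshold. The diet differences of Col6a1, Col6a2 and Col6a3 at 8 and 20 weeks did so under every alternative run. The mouse numbers do not pair the mice, since same-numbered mice of different groups had a median correlation of −0.068 (90 pairs), and with the mouse number as a replicate block the log2 difference of Col6a3/Col6a1 at 8 weeks was −0.72 with an exact sign-flip p of 0.0625, which no longer passed. No other chain call changed with the block.

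For 20 against 8 weeks in HFD, Col6a1 became called with TMM factors (−0.82), edgeR (−0.88) and DESeq2 (−0.85), and ranged from −0.96 to −0.58 over left-out mice, where it was called without 8 week HFD mouse 2. Col6a2 at 20 against 8 weeks in CD turned to 0.077 with edgeR, 0.080 with DESeq2, 0.019 without mouse 1 of 8 week CD and 0.20 if mouse 3 of 20 week CD was left out, with a range of −0.38 to 0.20. Col6a3 in the same comparison turned to 0.043 without 20 week CD mouse 3 (range −0.50 to 0.043). Col6a3 at 34 against 8 weeks in HFD turned to −0.057 without 8 week HFD mouse 2 (range −0.057 to 0.35), and Col6a5 at 34 against 20 weeks in CD turned to 0.0015 with DESeq2. Col6a5 at 8 weeks ranged from 1.09 to 1.54 over left-out mice and was not called without 8 week CD mice 3 or 5 or 8 week HFD mice 3, 4 or 5. Col6a3/Col6a1 at 20 weeks ranged from 0.25 to 0.41 and did not pass without 20 week CD mice 1 or 2. The level of Col6a2 per kilobase in 20 week HFD mice was 111 with the longest transcript and 117 with the longest protein-coding transcript, the latter added after seeing the data, against 65.2. DESeq2 called 590 genes in place of 370 for 20 against 8 weeks in CD and 851 in place of 464 for the interaction, and fits of each week alone called 2457 genes at 34 weeks in place of 4468. Over left-out mice the counts ranged from 217 to 483 for 20 against 8 weeks in CD and from 195 to 1310 for the interaction. The causes were not tested. Depth limits Col6a4, at 5 reads or fewer.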

Other observations

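Genes whose log2(CPM + 1) was most like that of Col6a5 over the 38 mice, a list made after the values were seen, were Pdgfra (r = 0.937), Col4a5 (0.935), Antxr1 (0.932), Frmd6 (0.932), Mmp2 (0.926), Dusp7 (0.921), Fnbp1l (0.921) and Icam1 (0.919). Over the same mice Col6a5 had r = 0.706 with Col6a3 and 0.422 with Col6a1, and 0.937 with its neighbour Col6a6. Pdgfra marks fat progenitors and Antxr1 is a receptor for the α3 chain. These are descriptions over mice of 6 groups that share diet and age.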
